A study of Homo sapiens with 10 samples.

Results

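Chaperonins are large ring-shaped protein complexes that enclose an unfolded protein and let it fold inside. The genes described here code for the cytosolic chaperonin CCT, also called TRiC, whose rings are built from 8 related but different subunits (TCP1, CCT2, CCT3, CCT4, CCT5, CCT6A, CCT7 and CCT8), and for the mitochondrial chaperonin made of HSPD1 (HSP60, the ring) and HSPE1 (HSP10, its lid). CCT uses ATP to fold actin and tubulin among other clients. HSPD1 and HSPE1 fold proteins after their import into the mitochondrial matrix. Rapidly dividing cells such as leukaemia lines make both complexes in quantity.

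All probe sets that the platform annotation assigns to these 10 genes were taken. This gave 21 of the 54630 Affymetrix probe sets with deposited values, for 10 of the 21357 genes named in that annotation. Of these, 18 were annotated with 1 gene. The 3 probe sets of TCP1 were also annotated with SNORA29, a small nucleolar RNA encoded in the same locus, so no value belongs to TCP1 alone. HSPD1 had 5 probe sets, CCT2, CCT4, CCT5, CCT6A and CCT8 had 2 each, and CCT3, CCT7 and HSPE1 had 1 each. For each gene the brightest probe set, judged by its mean over the 10 arrays, is called its main probe set.

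RNA was measured in 2 groups of 5 arrays each. The first group was K562, an established human cell line grown from chronic myeloid leukaemia and driven by BCR-ABL1, and the second was the microvesicles that these cells release. RNA was extracted with Trizol. Per the labels, the preparations came from independent experiments and 100 ng of total RNA went into each labelling. With equal input and normalized arrays, values are relative within an array, and how much RNA a vesicle holds cannot be told from them. How the microvesicles were purified, and whether a cell and a vesicle preparation of one number shared a culture, is not given in the sources used here.

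Array medians were 4.08 to 4.12 in cells and 4.22 to 4.28 in microvesicles, and no pair of arrays held identical values. The SD over probe sets was 2.33 to 2.36 in cells and 1.89 to 1.99 in microvesicles, so the microvesicle values were spread less widely. The median change was 0.49 among probe sets with a mean under 5, -0.84 among those between 7 and 10 and -0.32 among those of at least 10. The ACTB control probe sets at the 3' end exceeded those at the 5' end, a gap that tracks RNA integrity, by 2.26 to 2.57 in cells and 2.72 to 3.64 in microvesicles. For GAPDH the same gap was 0.37 to 0.54 in cells and 0.50 to 0.83 in microvesicles, so the groups overlapped. Of 9 K562 erythroid markers 8 were measured, 7 of them at 6 or above in cells and 8 in microvesicles. Their summed level was 71.6 to 74.2 in cells and 65.9 to 72.1 in microvesicles. Of the 8, 3 were called lower, TFRC (-1.63 ± 0.17), TAL1 (-0.79 ± 0.21) and GATA1 (-0.61 ± 0.16), and 1 higher, EPOR (0.79 ± 0.27). The 7 platelet markers summed to 27.8 to 28.7 and 31.7 to 33.2, with 5 called higher, 0 lower and none above 6.17 as a group mean. Among all probe sets with a mean under 5, the level of most of these markers, 47.0% were higher. The 6 measured lymphocyte markers summed to 32.0 to 33.6 and 32.0 to 33.4 with 4 higher and 1 lower, which was PTPRC (-2.99 ± 0.18). The 6 measured myeloid markers summed to 22.1 to 24.1 and 23.2 to 26.1 with 4 higher and 1 lower, which was LYZ (-2.65 ± 0.30). PPBP, S100A8 and S100A9 had cell means of 2.22, 2.58 and 2.67, under the array medians, and without a detection call their presence cannot be told. The part of RNA integrity and of these markers in the results below was not tested.

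HSPD1 and HSPE1 lie head to head on chromosome 2 and are transcribed away from each other, so the stretch between their starts is shown here because it lies upstream of both. In the RefSeq promoter windows (GRCh38.p14, 250 bases before to 50 after each start) the upper HSPD1 start and the HSPE1 start were 105 bases apart. The stretch between them, chr2:197500275-197500378 on the plus strand, is printed with the E-box letters in capitals. The second stretch, chr2:197500068-197500085 on the minus strand, lies 228 bases before a second HSPD1 start and holds 3 overlapping heat shock element pairs, all in capitals. It also lies 189 bases after the upper HSPD1 start and 294 bases before the HSPE1 start, outside the HSPE1 window.
Between the starts: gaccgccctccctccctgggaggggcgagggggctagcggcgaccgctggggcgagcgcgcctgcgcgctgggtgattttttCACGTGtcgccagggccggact
Before the second HSPD1 start: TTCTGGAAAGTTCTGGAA

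Promoter windows were found for 9 of the 10 genes, 12 windows in all, and none for CCT6A. The E-box CACGTG, the site read by MYC and related factors, was present in 2 of the 12 windows, against 7.26% of the 35116 windows searched. They were those of HSPE1 and of the upper HSPD1 start, and no CCT window held it. The HSPD1 and HSPE1 windows overlap, and this is 1 match that both contain. The heat shock element pair TTCNNGAA, a core of the site read by HSF1, was found in 2 of the 12 windows (7.74% of all windows), of CCT4 and HSPD1. The opposite arrangement GAANNTTC was found in 3 of the 12 (6.77%), of TCP1, CCT2 and HSPD1. Those 3 motifs read the same on both strands. The GC box GGGCGG was found in 9 of the 12 windows (45% of all windows), from 7 genes including both mitochondrial ones. CCAAT was found in 4 of the 12 (34.6%), of TCP1, CCT2, CCT3 and CCT8. Both were searched on either strand. A match describes these letters only.

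The comparison asks how the chaperonin transcripts in microvesicles differ from those in the parent cells. The main probe sets of 9 of the 10 genes were lower in microvesicles by 1.36-fold to 1.95-fold, and the probe set of TCP1 and SNORA29 did not pass. CCT5 and HSPD1 had the largest falls. The 8 CCT genes had a median change of -0.51 on the log2 scale (microvesicles minus cells). Of the 10 main probe sets 9 passed downwards and 0 upwards (limma adjusted p under 0.05). The background was 30.8% lower and 34.6% higher among 19775 genes, each read from its brightest probe set with 1 gene. The probe set of TCP1 and SNORA29 is not of that kind. The groups did not overlap in 8 of the 10, against 49.9% of genes. All 10 main probe sets had a mean of at least 10. Among the 1219 probe sets at such levels 43.7% were lower and 4.92% higher, 52.2% did not overlap, and the median change was -0.32, against -0.55 for the 10. A loess normalization that removes shifts depending on level left 2 of the 10 lower, CCT5 and HSPD1, and none higher, against 17.7% and 26.1% of genes.

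**Figure D1:**
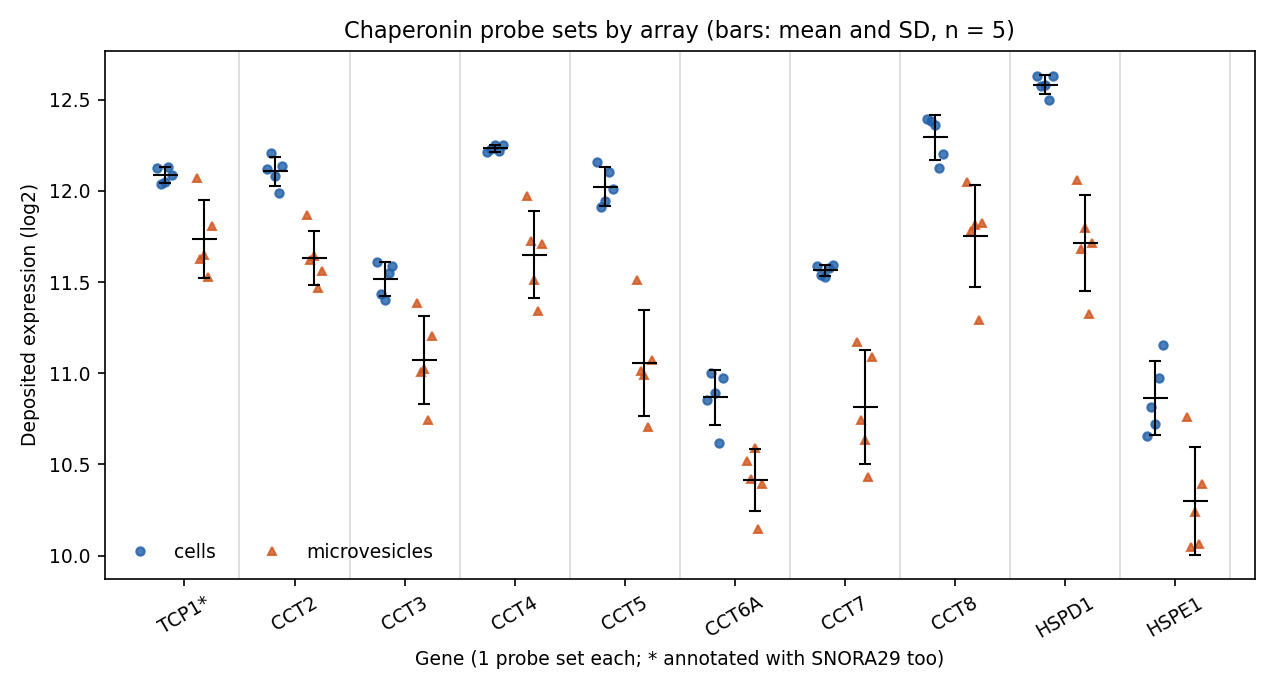
Deposited log2 expression (vertical axis) of the main probe set of each of the 10 genes (horizontal axis) on the 5 cell arrays (circles) and the 5 microvesicle arrays (triangles), with group means and SD as bars. The triangles lie below all circles for 8 genes and overlap them for TCP1 (annotated with SNORA29 too) and HSPE1. Heights of different probe sets are not comparable with each other.

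CCT5, the epsilon subunit, showed the largest fall among the main probe sets (208696_at). Its values were 12.16, 11.91, 11.94, 12.10 and 12.01 in cells replicates 1 to 5 and 11.51, 11.01, 10.99, 10.70 and 11.07 in microvesicles replicates 1 to 5. The groups were well apart, with microvesicles replicate 1 the closest to the cells. Mean levels were 12.02 ± 0.10 (SD, n = 5) for cells and 11.06 ± 0.29 (SD, n = 5) for microvesicles, which gives a change of -0.97 ± 0.17 (SE), 1.95-fold lower (limma adjusted p = 0.000407). After loess the change was -0.60 (adjusted p = 0.0051), and after quantile normalization of the deposited values -0.65 (0.00565). CCT5 is also the subunit in which mutations cause a hereditary sensory neuropathy, and it can form rings of its own.

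CCT7, the eta subunit, had the next largest fall among the CCT genes (200812_at). Cells stood at 11.59, 11.54, 11.53, 11.58 and 11.60 and microvesicles at 11.17, 10.75, 10.63, 10.43 and 11.09. The cell arrays were nearly identical, and the microvesicle arrays formed a high pair (replicates 1 and 5) and a lower trio. The change was -0.75 ± 0.17, 1.68-fold lower (limma adjusted p = 0.00244). It passed after quantile normalization (-0.42, adjusted p = 0.0464) and did not after loess (-0.33, 0.103).

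CCT4, the delta subunit, was read by the tightest cell group of all (200877_at). Its values were 12.21, 12.23, 12.25, 12.22 and 12.25 in cells and 11.97, 11.72, 11.51, 11.34 and 11.71 in microvesicles, so each microvesicle array lay below every cell array. The change was -0.58 ± 0.16, 1.5-fold lower (limma adjusted p = 0.00697). CCT8, the theta subunit (200873_s_at), stood at 12.39, 12.38, 12.36, 12.12 and 12.20 in cells and 12.05, 11.78, 11.81, 11.29 and 11.82 in microvesicles. Cells replicates 4 and 5 were the lower cell arrays here and still lay above the microvesicles. The change was -0.54 ± 0.17, 1.45-fold lower (limma adjusted p = 0.0151). Neither gene passed after loess (-0.29 and -0.26, adjusted p = 0.129 and 0.195).

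CCT2, the beta subunit (201947_s_at), had values of 12.12, 12.21, 12.08, 11.99 and 12.14 in cells and 11.87, 11.62, 11.65, 11.47 and 11.56 in microvesicles. The highest microvesicle array again was replicate 1, below the lowest cell array, replicate 4. The change was -0.47 ± 0.15, 1.39-fold lower (limma adjusted p = 0.0143). After loess it stood at -0.17 (adjusted p = 0.381).

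CCT6A and CCT3, the zeta and gamma subunits, fell by less and their calls were the least firm. CCT6A (201327_s_at) stood at 10.85, 11.00, 10.89, 10.62 and 10.98 in cells and 10.52, 10.42, 10.59, 10.14 and 10.39 in microvesicles. The lowest cell array, replicate 4, was close to the highest microvesicle array, replicate 3. The change was -0.46 ± 0.16, 1.37-fold lower (limma adjusted p = 0.0229), and it turned to 0.052 after loess (adjusted p = 0.816). Leaving out cells replicate 2, 3 or 5 ended the call (limma adjusted p = 0.0633, 0.0526 and 0.0591). CCT3 (200910_at) was 11.61, 11.44, 11.40, 11.55 and 11.59 in cells and 11.38, 11.01, 11.02, 10.74 and 11.20 in microvesicles. Microvesicles replicate 1 came within a narrow gap of cells replicate 3. The change was -0.44 ± 0.16, 1.36-fold lower (limma adjusted p = 0.0294), and -0.040 after loess (adjusted p = 0.852). It was lost without cells replicate 1, 2, 4 or 5 or microvesicles replicate 4 (adjusted p = 0.0692, 0.0511, 0.0583, 0.067 and 0.0512).

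The main probe set of TCP1, the alpha subunit, and SNORA29 (208778_s_at) stood at 12.13, 12.04, 12.05, 12.13 and 12.09 in cells and 12.07, 11.62, 11.65, 11.53 and 11.81 in microvesicles. Microvesicles replicate 1 lay within the range of the cells, and the other four microvesicle arrays lay below it. The change of -0.35 ± 0.16 did not pass (limma adjusted p = 0.0646), and without microvesicles replicate 1 it did (-0.43, adjusted p = 0.0179). It was -0.049 after loess (adjusted p = 0.81) and -0.51 with arrays centred on their median, where it passed (0.0159). At the same change of -0.35 it also passed with a variance trend and robust fitting (0.00597) and with a filter on dim probe sets (0.0443).

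HSPD1, the mitochondrial ring protein, fell in both of its bright probe sets. The main one (200807_s_at) stood at 12.63, 12.58, 12.58, 12.50 and 12.63 in cells and 12.06, 11.68, 11.80, 11.33 and 11.71 in microvesicles. No microvesicle array came near the cells. The mean went from 12.58 ± 0.054 to 11.71 ± 0.26 (SD, n = 5 each), a change of -0.87 ± 0.17, 1.83-fold lower (limma adjusted p = 0.000627). The other bright probe set (200806_s_at) gave 11.56, 11.63, 11.77, 11.42 and 11.47 in cells and 11.18, 10.64, 10.67, 10.09 and 10.61 in microvesicles, a change of -0.94 ± 0.20 (limma adjusted p = 0.00124). After loess both were still lower, by -0.61 and -0.50 (adjusted p = 0.00382 and 0.0266).

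HSPE1, the lid of the same complex (205133_s_at), fell by less. Its values were 10.66, 10.82, 10.72, 10.97 and 11.16 in cells and 10.76, 10.05, 10.24, 10.06 and 10.39 in microvesicles. Microvesicles replicate 1 stood above cells replicates 1 and 3, so the groups overlapped. The change was -0.57 ± 0.18, 1.48-fold lower (limma adjusted p = 0.0165), and it was -0.050 after loess (adjusted p = 0.836). Leaving out cells replicate 5 ended the call (-0.49, limma adjusted p = 0.051).

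HSPE1 and HSPD1, the head-to-head pair, were compared directly. The HSPE1 value minus the HSPD1 value, whose size depends on the probes and whose shift between groups is the measurement, was -1.97, -1.76, -1.86, -1.52 and -1.47 in cells and -1.30, -1.63, -1.56, -1.27 and -1.32 in microvesicles. The groups overlapped, since cells replicates 4 and 5 lay between the microvesicle arrays. The shift was 0.30 in favour of HSPE1 (2-sided exact permutation p = 0.0476, adjusted p = 0.113 over the 45 pairs below). It was 0.56 after loess (exact permutation p = 0.00794, the smallest possible) and 0.12 when all probe sets of each gene were averaged (exact permutation p = 0.294). The call ended when cells replicate 1, 2 or 3 (exact permutation p = 0.0794 each) or microvesicles replicate 1, 4 or 5 (0.0873 each) was left out, with shifts of 0.24 to 0.29.

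The changes of the 10 main probe sets were compared with each other in all 45 pairs, each by a 2-sided exact permutation test of the within-array difference. In order of their falls the genes were CCT5, HSPD1, CCT7, CCT4, HSPE1, CCT8, CCT2, CCT6A, CCT3 and TCP1, and no neighbours in this order differed (adjusted p = 0.113 to 0.944). CCT5 fell more than each of the other 7 CCT genes and HSPE1. The difference was 0.62 against TCP1 (exact permutation p = 0.00794, adjusted p = 0.0275) and 0.21 against CCT7 (the same p-values). HSPD1 fell more than TCP1, CCT2, CCT3, CCT4, CCT6A and CCT8, by 0.29 (CCT4) to 0.52 (TCP1), with adjusted p = 0.0446 for CCT4 and 0.0275 for the rest. CCT7 fell more than TCP1 and CCT3, by 0.40 and 0.31 (adjusted p = 0.0275 each). CCT5 and HSPD1 themselves did not differ (difference 0.097, exact permutation p = 0.198, adjusted p = 0.288). In all 16 of the 45 pairs passed, and the same 16 were among 23 that passed after loess.

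Counting every probe set, 14 of the 21 were lower and 1 was higher, against 27.0% and 35.4% of the 54613 tested, and 11 did not overlap, against 45.9%. Their median change was -0.57, and that of all probe sets was 0.27. After loess 5 were lower and 4 higher, against 21.3% and 18.6%, with a median of -0.17. The median of all probe sets was then 0.026. Without microvesicles replicate 1, 15 were lower and 1 higher, and without replicate 4 the counts were 13 and 1.

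**Figure D2:**
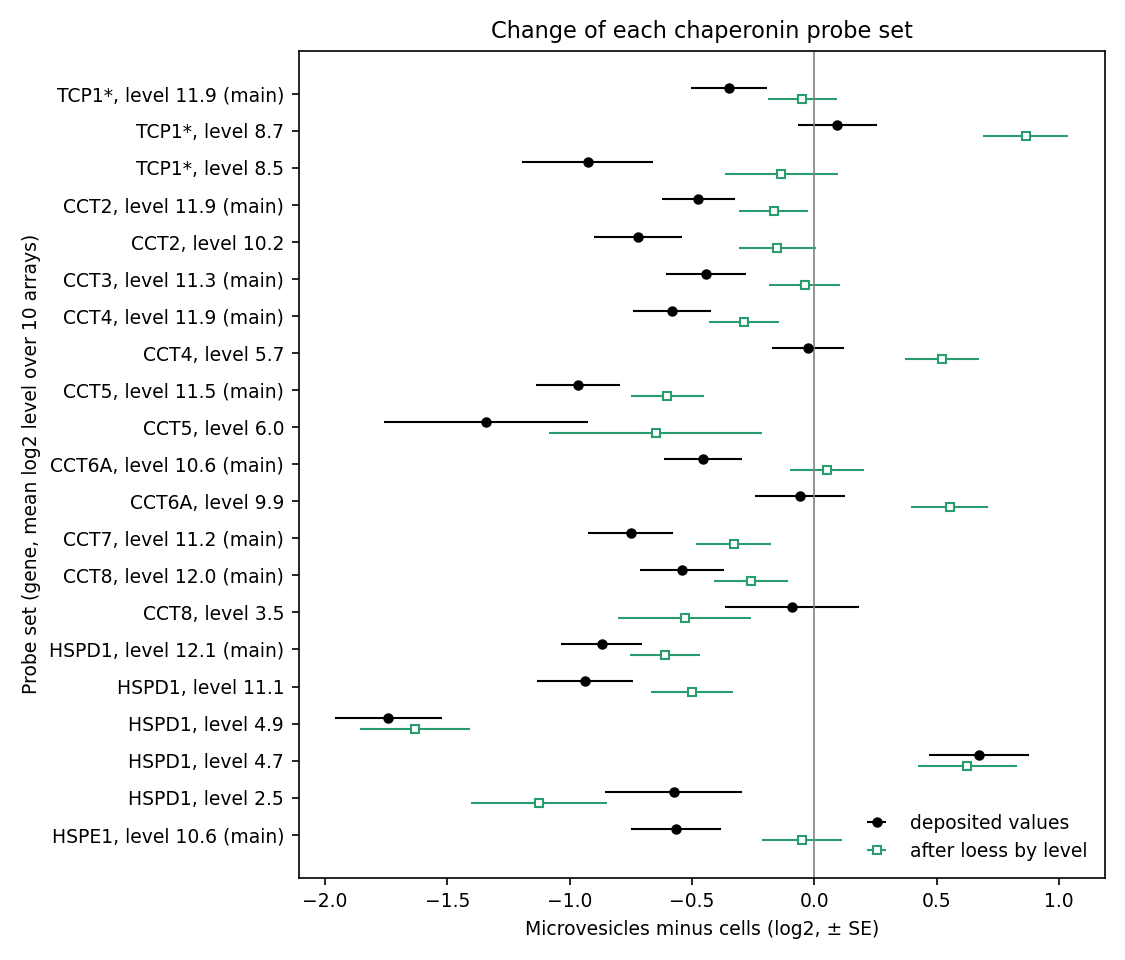
Change of each of the 21 probe sets (horizontal axis, microvesicles minus cells on the log2 scale, with SE) in the deposited values (filled circles) and after loess by level (open squares), labelled by gene and mean log2 level. After loess the main probe sets of CCT5 and HSPD1 stay at -0.60 and -0.61 and the other 8 main probe sets lie between -0.33 and 0.052, while the 2 dim HSPD1 probe sets at levels 4.9 and 4.7 lie on opposite sides of 0.

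Probe sets of one gene did not always change alike. Each of the 11 other probe sets was compared with the main one of its gene by an exact permutation test, and 5 differed (adjusted over the 11). For HSPD1 a dim probe set (243372_at) was 5.61, 5.78, 5.53, 5.98 and 6.19 in cells and 4.57, 4.0, 4.2, 3.43 and 4.18 in microvesicles. Its change of -1.74 ± 0.22 exceeded that of the main probe set (exact permutation p = 0.00794, adjusted p = 0.0291), and its microvesicle mean of 4.08 lay below the array median. Another (243845_at) was 4.2, 4.27, 4.21, 4.38 and 4.66 in cells and 5.41, 5.01, 4.84, 5.38 and 4.44 in microvesicles. It was the 1 member probe set that rose (0.67 ± 0.20, limma adjusted p = 0.0119), and microvesicles replicate 5 lay within the range of the cells. The fifth HSPD1 probe set (241716_at) lay below the array median in both groups, at 2.81 ± 0.59 and 2.23 ± 0.40 (SD, n = 5 each), and did not pass (-0.58 ± 0.28, limma adjusted p = 0.0853). It passed after loess (-1.12, 0.00493), quantile normalization (-0.96, 0.0146) and median centring (-0.73, 0.0402), and without cells replicate 4 (-0.73, 0.043).

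Among the CCT genes, the dimmer TCP1 and SNORA29 probe sets did not change alike, and in the deposited values only the second below passed. The first (222010_at) was 8.66 ± 0.12 in cells and 8.75 ± 0.22 in microvesicles and the second (222011_s_at) 8.97 ± 0.14 and 8.05 ± 0.67 (SD, n = 5 each). They changed by 0.093 ± 0.16 (limma adjusted p = 0.621; 0.86 and 0.00117 after loess) and -0.93 ± 0.27 (0.00923; -0.14 and 0.677 after loess), and both differed from the main probe set (exact permutation p = 0.0159, adjusted p = 0.0349 each). The dimmer CCT4 probe set (227171_at) was at 5.71 ± 0.12 and 5.68 ± 0.083 (SD, n = 5 each), a change of -0.028 ± 0.15 that differed from the main one (exact permutation p = 0.00794, adjusted p = 0.0291). The dimmer CCT2 probe set (201946_s_at) fell by 0.72 ± 0.18 (limma adjusted p = 0.00387) and did not pass after loess (-0.15, 0.481) or quantile normalization (-0.25, 0.237). The dimmer CCT5 probe set (229068_at) fell by 1.34 ± 0.42 (limma adjusted p = 0.0136), with microvesicle values from 3.83 to 6.48, and did not pass after loess (-0.65, 0.261) or quantile normalization (-0.75, 0.283). The second CCT6A probe set (201326_at) changed by -0.060 ± 0.18 (limma adjusted p = 0.784; 0.55 and 0.0118 after loess) and the dim CCT8 probe set (210436_at) by -0.092 ± 0.28 (0.779). The position of a probe set within its transcript was not used here.

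The same microvesicle arrays were highest and lowest in most genes, while the order of the other three varied. Microvesicles replicate 1 was the highest of the 5 in 9 of the 10 main probe sets and replicate 4 the lowest in 9. Replicate 1 lay 0.32 above the microvesicle mean on average over the 10 and replicate 4 0.31 below it, while cell arrays stayed within -0.036 to 0.049 of theirs. The mean over the 8 CCT genes was 11.57 in microvesicles replicate 1, 10.96 in replicate 4 and 11.23 to 11.33 in the other three. The ACTB gap between 3' and 5' ends was smallest in replicate 1 (2.72) and widest in replicate 4 (3.64) among the microvesicles. Among all probe sets with a mean of at least 10, replicate 1 was the highest in 60.7% and replicate 4 the lowest in 53.3%.

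**Figure D3:**
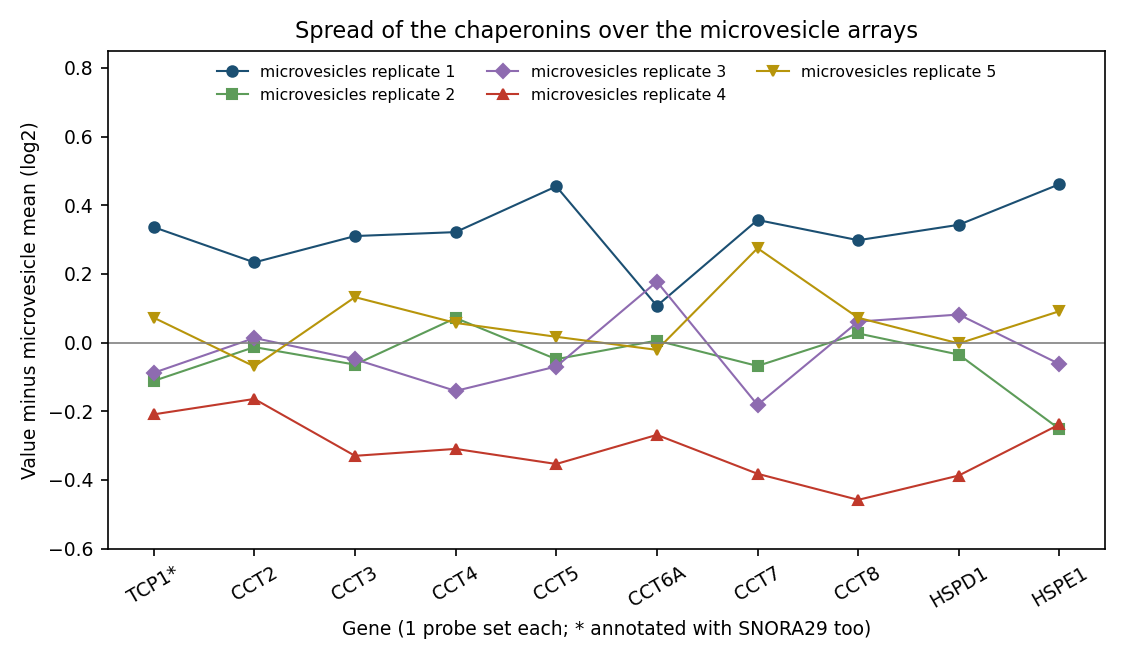
Value of each main probe set on each microvesicle array minus the mean of the 5 microvesicle arrays (vertical axis, log2) for the 10 genes (horizontal axis), 1 line per array. Replicate 1 is on top except for CCT6A and replicate 4 is at the bottom except for HSPE1.

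The genes whose profiles were most like the mean of the 8 CCT genes were found by the root mean square difference of centred profiles over the 10 arrays among 19766 other genes. They were LDHB (0.037), a lactate dehydrogenase subunit, the mitochondrial ribosomal protein gene MRPL13 (0.055), SINHCAF (0.06), DCUN1D5 (0.063) and PNRC2 (0.066), with changes between -0.61 and -0.52. The same distance was 0.054 for CCT4, 0.16 for HSPD1 and for HSPE1, and 0.22 for CCT5, the farthest of the members. The CCT genes are themselves part of that mean.

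Genes that work with the chaperonins were read from 9 lists of folding partners, clients and mitochondrial quality control. Of 78 measured genes 38 fell and 2 rose, with a median change of -0.39. After loess 9 were lower and 23 higher with a median of 0.16, so the balance of these lists depended on the scaling. The corresponding shares of all genes are those given above for 1 probe set per gene. Those include many dim genes, whereas 72 of the 78 partners had a cell mean of at least 6. Among 6149 probe sets with a mean of 7 to 10, 4051 were lower and 369 higher (1666 and 1584 after loess). Among the 1219 of at least 10, 533 were lower and 60 higher (160 and 227 after loess). In the deposited values the share of falls among the partners lay between the shares of these groups, and the share of rises below both. After loess the share of falls among the partners lay below both and the share of rises above both.

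On the cytosolic side, prefoldin, which hands unfolded actin and tubulin to CCT, had 2 falls and 0 rises among 5 measured subunits, with a median of -0.029. VBP1 was lower by 0.65 ± 0.16 (limma adjusted p = 0.00345, and -0.20 with loess), whereas PFDN5 stood at 0.26 ± 0.14 and did not pass (0.129). After loess 0 were lower and 3 higher. Of 6 measured CCT cofactors 4 fell and 0 rose (median -0.51; after loess 0 and 1), with TXNDC9, a phosducin-like regulator, at -1.11 ± 0.20 (limma adjusted p = 0.000494; -0.37 after loess). The 6 prefoldin-like and R2TP genes had 2 falls and 0 rises and the same number of falls after loess, with 3 rises. Lower in both were RPAP3 (-1.67 ± 0.24, limma adjusted p = 6.97e-05) and RUVBL1 (-1.31 ± 0.22, 0.000274). Tubulin folding cofactors had 2 falls and 0 rises of 6 (0 and 2 after loess), with TBCE at -1.09 ± 0.19 (limma adjusted p = 0.000372). In the list of 5 related chaperonins 3 genes fell and 0 rose (2 and 0 after loess). Among the falls was BBS10, a chaperonin-like gene of Bardet-Biedl syndrome (-1.89 ± 0.36, limma adjusted p = 0.000683; -1.37 after loess, 0.00776). Another was CLPB, which is not of the chaperonin family (-0.56 ± 0.23, limma adjusted p = 0.0458; 0.12 after loess). CCT6B, the relative of CCT6A, was at 4.48 and 4.49.

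Among 21 measured CCT clients 9 fell and 2 rose, with a median of -0.38. The beta-tubulin gene TUBB2A fell by 1.04 ± 0.16 (limma adjusted p = 0.000116, and -0.32 with loess), and TUBA1B, an alpha-tubulin gene, by 0.46 ± 0.15 (0.0187). ACTB, the best known client, was at -0.27 ± 0.16 and did not pass (0.149). The rises were those of FZR1, an activator of the anaphase-promoting complex (1.48 ± 0.18, limma adjusted p = 1.78e-05), and MLST8, a subunit of the mTOR complexes (0.67 ± 0.20, 0.00992). After loess 0 of the 21 were lower and 7 higher.

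On the mitochondrial side, HSPA9, the matrix HSP70 that passes imported proteins on to HSPD1, fell by 0.60 ± 0.15 (limma adjusted p = 0.0033, and -0.17 with loess). It was 1 of 6 falls among 8 genes of the HSP70 and HSP90 system, which had a median of -0.69 and no fall after loess. The nucleotide exchange factor GRPEL1 had the largest fall of this list (-1.08 ± 0.24, limma adjusted p = 0.00209). Of 8 mitochondrial proteases and their partners 5 fell and 0 rose, and 3 were lower after loess: OMA1 (-1.89 ± 0.25, limma adjusted p = 3.71e-05; -1.03 after loess), AFG3L2 (-1.78 ± 0.21, 1.56e-05; -1.18) and CLPX (-1.73 ± 0.29, 0.000225; -0.92). LONP1 and CLPP, other matrix proteases, were at 0.21 ± 0.18 and 0.27 ± 0.14 and did not pass, and both were higher after loess (0.92 and 1.05, adjusted p = 0.0007 and 0.000107). Import genes had 5 falls and 0 rises of 13 with a median of -0.34, 2 falls and 4 rises after loess, and PMPCA, the alpha subunit of the processing peptidase that removes presequences, at -1.44 ± 0.22 (limma adjusted p = 9.54e-05; -0.61 after loess).

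**Figure D4:**
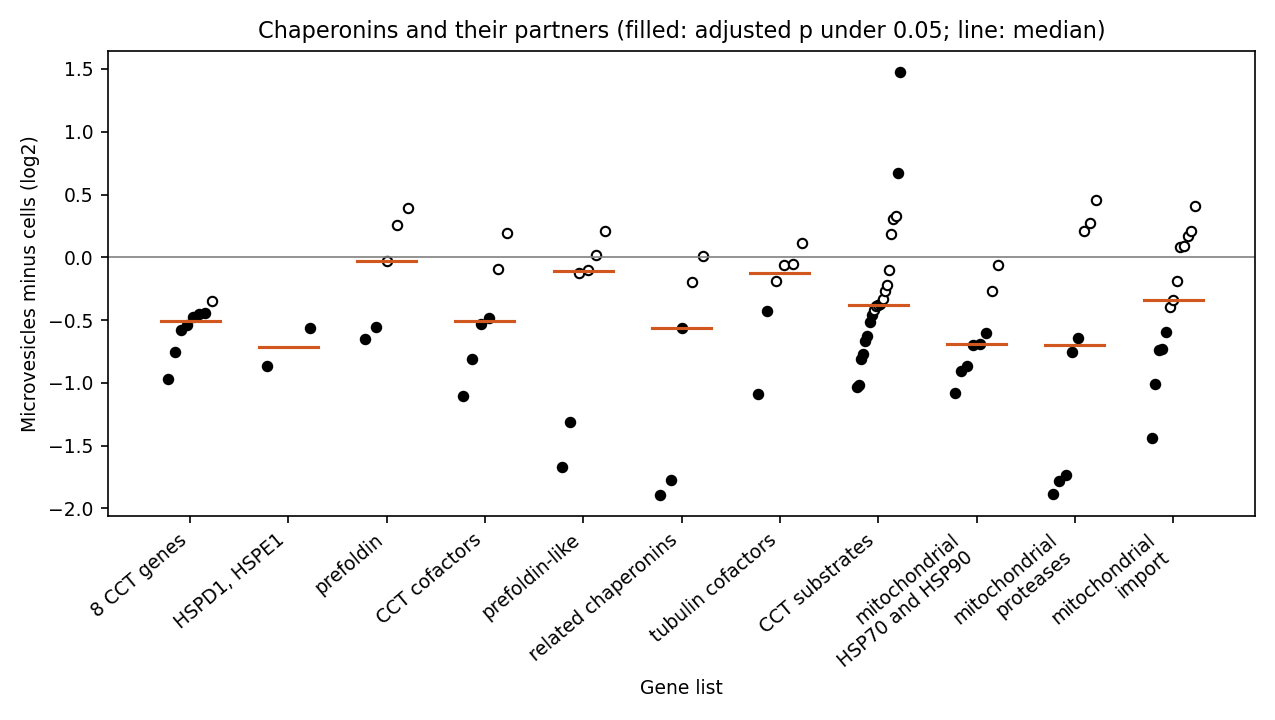
Change of each gene (vertical axis, microvesicles minus cells on the log2 scale, deposited values) for the 8 CCT genes, HSPD1 and HSPE1 and the 9 partner lists (horizontal axis), filled where the limma adjusted p is under 0.05, with the median of each list as a line. The CCT genes span -0.97 to -0.35, while the partner lists hold falls down to -1.89 and 2 rises, both among the CCT clients.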

How the data were processed

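The deposited table gives log2 expression values in 1 column per array, and RMA is the method that the authors used per the submitters' processing notes. No detection call comes with them, and the RMA settings are not stated. The deposited distributions differed between the groups, with a narrower spread in microvesicles, so the values were also compared after loess and quantile normalization.

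All 54613 non-control probe sets were fitted with limma 3.58.1 in R 4.3.3 (lmFit and eBayes, 1 mean per group, 2-sided), with Benjamini-Hochberg adjustment over all of them and a threshold of 0.05. The fit was also run on simulated data with independent noise for each value. Such data lack the shifts shared by the genes of an array that are described above. Gene names came from the platform annotation and the RefSeq table, and 41091 probe sets had 1 gene, 1801 several and 11721 none listed. Partner genes were read from their brightest probe set with 1 gene. Named were all member probe sets, the largest fall and rise past the threshold of each partner list and the 5 nearest profiles. PFDN5, RUVBL1, TUBA1B, ACTB, MLST8, HSPA9, AFG3L2, CLPX, LONP1, CLPP, CLPB and CCT6B were added after their values were seen. The members and lists were chosen with earlier results of these data known, and the tests of pairs other than HSPE1 with HSPD1, as well as the promoter motifs, were chosen afterwards. Alternatives were loess by level (each array against the mean array), quantile normalization, median centring, the replicate number as a block, and a variance trend with robust fitting. Further ones were array weights, a filter on dim probe sets, an exact rank sum test, averaging all probe sets of each gene, and leaving out each array. For arrays, their number limits the precision.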

Additional observations from a re-analysis of the deposited data

How the results depend on the processing

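Loess by level and quantile normalization of the deposited values moved most counts. Member probe sets had 5 falls and 4 rises after loess and 6 and 4 after quantile normalization, with medians of -0.17 and -0.25, and partner genes 9 and 23, and 8 and 22. Over all 54613 probe sets rises numbered 10135 and 10282. The dim filter kept 22996 probe sets and left out 2 member probe sets, and 4242 of those kept rose. The split over all probe sets, 14758 lower and 19318 higher, was 11650 and 10135 after loess, 10111 and 10282 after quantile normalization and 16492 and 13032 with median centring, where the median change of all probe sets was 0.11. Rises among partner genes were 6 by the exact rank sum test and 9 when all probe sets of each gene were averaged. With the variance trend and robust fitting they numbered 4. CCT6A turned to 0.052 after loess in its main probe set and to 0.55 (0.45 after quantile normalization) in the other, and the dimmer CCT4 probe set to 0.52 (0.47). The brighter of the dim TCP1 probe sets turned to -0.066 with median centring.

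Leaving out each array gave 11 to 15 member falls, 1 rise, a median of -0.62 to -0.50, 31 to 39 partner falls and 2 to 3 rises, and over all probe sets 13591 to 14990 falls and 15790 to 19710 rises. HSPE1 minus HSPD1 ranged from 0.24 to 0.36 and lost its call in 6 of the 10. Signs of uncalled changes turned for the dim CCT8 probe set (range -0.31 to 0.083), the second CCT6A one (-0.19 to 0.032) and the dimmer CCT4 one (-0.062 to 0.0072). HSPE1 minus HSPD1 stood at 0.12 (exact permutation p = 0.294) when all probe sets of each gene were averaged.

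Same-numbered arrays correlated only weakly in their deviations, by 0.036, -0.025, 0.076, 0.11 and 0.066 for replicates 1 to 5. Still, 4 of the 5 cell arrays correlated best with the microvesicle array of their own number. This is a hint from the data, and the labels do not say whether the numbers pair the preparations. With the replicate block 13 member probe sets fell and CCT3 did not pass (adjusted p = 0.0589), and HSPE1 minus HSPD1 (0.30) had an exact sign-flip permutation p of 0.0625, the smallest that design allows. The exact rank sum test did not pass HSPE1 (adjusted p = 0.0535). With only the probe sets annotated with 1 gene, chosen after seeing the data, 13 of 18 fell. Without a detection call, changes of probe sets under the array median are limited by background.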
